A study of Mus musculus with 2 samples.

Results

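The cathepsins B, C, D, H, K, L, S and Z (Ctsb, Ctsc, Ctsd, Ctsh, Ctsk, Ctsl, Ctss and Ctsz), legumain (Lgmn) and cystatin C (Cst3) were followed in cells of mouse epididymal white adipose tissue. These 10 genes were chosen by symbol from the 27998 genes of the count tables, and each symbol stood for 1 row. The tissue was digested with collagenase, and the stromal vascular fraction, which holds the cells other than mature adipocytes, was profiled with 10x Chromium 3′ single-cell RNA sequencing. There were 2 libraries, both from male wild-type C57BL/6J mice 18 weeks old. The NCD library came from mice on normal chow diet and the HFD library from mice on a high fat diet for 12 weeks. How many mice were pooled into a library is not given in the sources used here.

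Cathepsins are proteases of endosomes and lysosomes. They are made as inactive proenzymes, are carried to the lysosome on mannose 6-phosphate receptors or sortilin, and are activated there at acid pH, by each other or by legumain. Together they break down proteins taken up by the cell, and in antigen-presenting cells they cut the invariant chain and antigens for loading on MHC class II. Cathepsin K is known best from osteoclasts, where it degrades collagen, and several cathepsins also work outside the cell on matrix. Cystatin C is a secreted protein that binds and blocks the cysteine cathepsins, but not the aspartic protease cathepsin D. In fat, the genes are made both by macrophages and by fibroblast-like progenitors of adipocytes.

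The NCD library held 7365 cell barcodes with 33825653 unique molecular identifiers (UMIs, each standing for 1 captured molecule), and the HFD library 6840 barcodes with 18623508 UMIs. The median cell had 4230 UMIs in NCD and 2020 in HFD. The libraries shared 64 barcode sequences. With 1 library per diet there was no replicate, no test was made, and diet and library cannot be told apart. Values are UMIs per 1000000 UMIs summed over the cells of a class (CPM). Ranges in brackets are exact 95% intervals that cover counting error only, not the variation between animals. The 3′ method gives 1 tag per molecule, so levels of different genes were compared without a length term.

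The files carried no cell type labels, so cells were clustered without the 10 genes and classes were named from marker genes. The names are rebuilt, so a difference from the study's own classes may come from them. Macrophage-like cells (C1qa, Csf1r, Adgre1 and others) numbered 2013 in NCD and 2150 in HFD. Dendritic-like cells numbered 276 and 162. Type 1 dendritic-like cells (Xcr1, Clec9a, Irf8) made up 113 and 123 of these, type 2 cells (Cd209a, Flt3) 138 and 11, and activated cells (Ccr7, Fscn1) 25 and 28. Progenitor-like cells (Pdgfra, Dcn, Col1a1) numbered 3265 and 3010. Within each class different clusters held most cells of each library. In macrophages the NCD cells lay mainly in the resident-like clusters 3a, 2a and 2b and the HFD cells in the lipid-associated-like clusters 1b, 22a, 1a and 22c. In type 1 dendritic cells, cluster 18b held 100 of the 113 NCD cells and cluster 18a held 97 of the 123 HFD cells. Most NCD progenitors lay in clusters 9a, 12a, 13a, 9b and 10a, and most HFD progenitors in clusters 5b, 5a, 23a and 6a.

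Free RNA enters droplets from broken cells, and marker genes of other classes were used here to gauge it. The level of these markers differed between the libraries. Whether droplets holding cells of different classes added to it was not tested. In macrophages, 15 stromal marker genes stood at a median of 4.69% of their level over the whole NCD library (range over genes 2.58 to 14.98%) and at 31.0% in HFD (25.5 to 39.3%). Their summed level in macrophages was 1380 CPM in NCD and 8974 CPM in HFD. In progenitors, 8 macrophage marker genes stood at a median of 2.85% in NCD and 24.0% in HFD, with summed levels of 198 and 1456 CPM. None of these markers was at 0 in either class. In dendritic cells the stromal median was 2.53% and 20.9%, and the macrophage median 3.96% and 20.3%. Values after subtraction of this signal, and values in the clusters where it was at most 25% of the library level, are therefore given beside the results.

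Promoter sequence was taken from RefSeq (GRCm38.p6), which gave 9 promoter entries for 8 of the 10 genes and none for Ctsb or Ctsh. Ctsk (chr3:95499256-95509362) and Ctss (chr3:95526786-95556403) are neighbours on the plus strand of chromosome 3, 17423 bases apart in GENCODE vM21 (GRCm38). Their 250 bases before the start of transcription are printed because the 2 genes ranked macrophages and progenitors in opposite order in NCD. The plus-strand windows are chr3:95498960-95499209 for Ctsk and chr3:95526536-95526785 for Ctss. Capitals mark a match to the core GAAANNGAA of the interferon-stimulated response element.
Ctsk: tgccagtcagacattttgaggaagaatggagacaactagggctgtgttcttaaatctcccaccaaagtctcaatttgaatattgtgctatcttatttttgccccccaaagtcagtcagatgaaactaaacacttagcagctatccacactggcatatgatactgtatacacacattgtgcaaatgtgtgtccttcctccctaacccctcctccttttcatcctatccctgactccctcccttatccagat
Ctss: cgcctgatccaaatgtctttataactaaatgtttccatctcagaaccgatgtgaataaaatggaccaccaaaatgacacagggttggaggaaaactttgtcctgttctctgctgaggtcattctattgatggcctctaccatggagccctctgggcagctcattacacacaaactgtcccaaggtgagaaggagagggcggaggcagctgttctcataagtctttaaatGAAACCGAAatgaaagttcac
The match in Ctss begins 21 bases upstream of the start, and the Ctsk window held no match to any motif searched.

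Every promoter window was searched on both strands for 3 motifs. These were the E-box CACGTG of the CLEAR element, which is bound by the lysosomal regulators of the TFEB family, the interferon core above, and the AP-1 site TGANTCA. Windows around the E-box matches are printed for the 3 genes that held them, 5′ to 3′ on the minus strand with the E-box in capitals.
Ctsd (chr7:142388055-142388077): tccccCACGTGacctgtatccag
Ctsd (chr7:142387908-142387937): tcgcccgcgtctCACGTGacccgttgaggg
Ctsl (chr13:64370739-64370768): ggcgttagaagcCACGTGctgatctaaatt
Lgmn (chr12:102439124-102439153): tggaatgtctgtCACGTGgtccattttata
Counted from the RefSeq start used for each window, the matches begin 245 and 98 bases upstream in Ctsd, 236 in Ctsl, and 49 upstream of 1 of the 2 Lgmn starts. These RefSeq starts lie inside the GENCODE gene spans, so all but the outer Ctsd match fall within the annotated gene. Annotated exons cover 211 bases of the Ctsd window of 250 bases, 48 of the Ctsl window and 0 of the Lgmn window with the match. Of all 32851 promoter windows of 250 bases in the table, 6.02% held the E-box, 7.13% the interferon core and 6.75% the AP-1 site. No window of the 8 genes held the AP-1 site, and no match overlapped another. A match is a sequence description, and binding was not measured.

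In macrophages, 4 of the 10 genes were at least 2-fold higher in HFD (Ctsd, Ctsk, Ctsl and Ctsz) and 1 was at least 2-fold lower (Ctsc). Of the 7421 genes measured at 10 CPM or more in either library, 10.0% were that much higher and 10.3% that much lower. In dendritic cells, 5 genes were at least 2-fold higher in HFD (Ctsb, Ctsd, Ctsk, Ctsl and Lgmn) and 0 lower, against 10.5% and 10.2% of 6751 genes. Subtraction of free RNA left 1 of those 5 past 2-fold. In progenitors, 5 genes were at least 2-fold higher (Ctsb, Ctsd, Ctsk, Ctss and Lgmn) and 0 lower, against 5.15% and 4.38% of 8076 genes, and subtraction left 3 (Ctsk, Ctss and Lgmn). Subtraction took Ctss to 0 CPM in NCD, so its ratio there is a bound set by a floor of 3 UMIs. The shares of all genes given here are without subtraction.

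**Figure D1:**
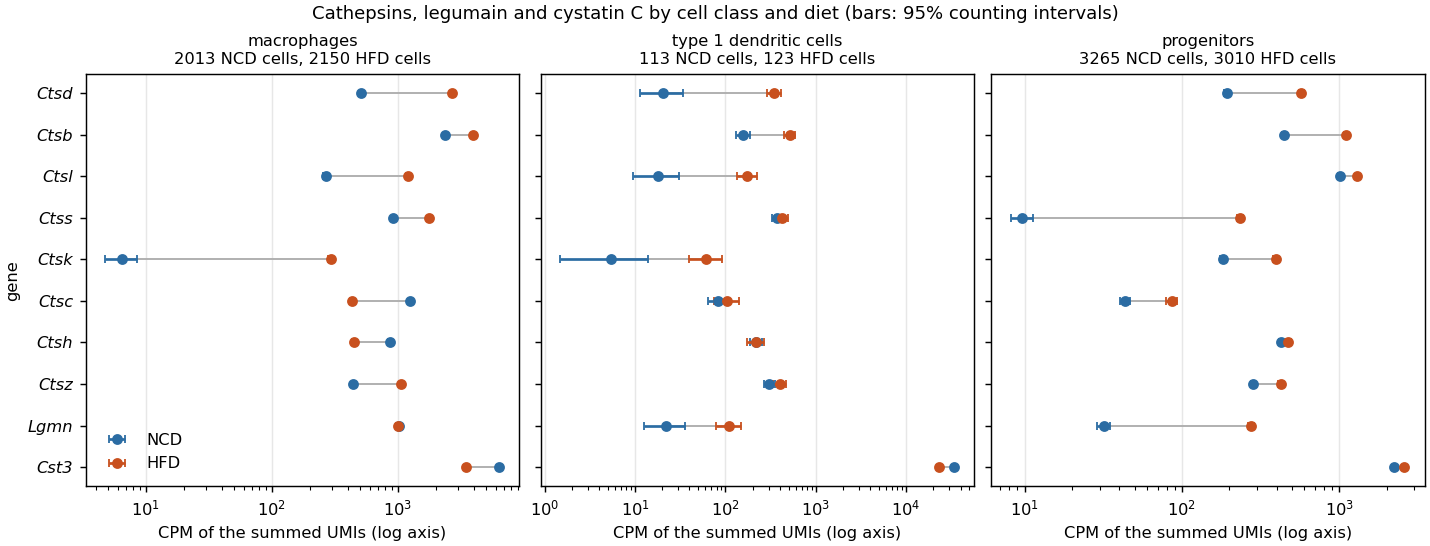
Level of each of the 10 genes (CPM, log axis) in macrophages, type 1 dendritic cells and progenitors, with the NCD and HFD library joined by a line and bars for the 95% counting interval. Ctsd in macrophages goes from 514 CPM in NCD to 2700 CPM in HFD, and Cst3 is highest in type 1 dendritic cells in both libraries.

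**Figure D2:**
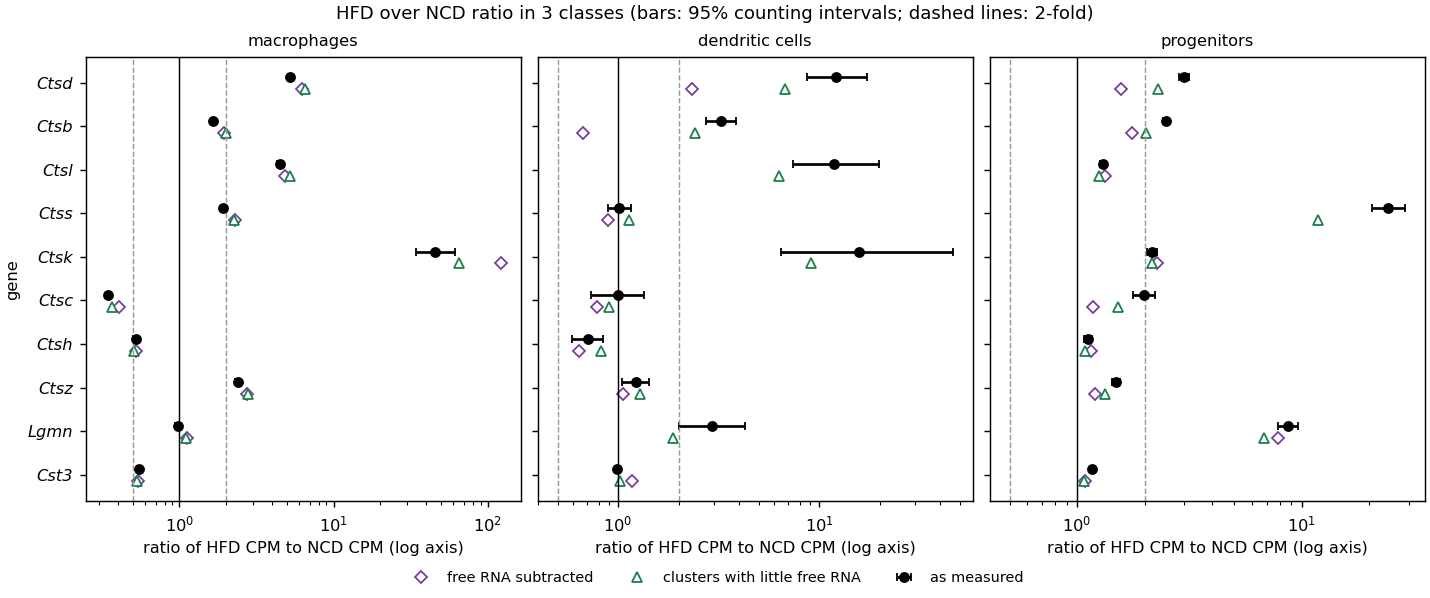
Ratio of HFD to NCD CPM for each gene (log axis) in macrophages, dendritic cells and progenitors, as measured with 95% counting intervals, after subtraction of free RNA (left out where that gave 0 in a library), and in the clusters with little free RNA. The dashed lines mark 2-fold, and Ctsk in macrophages lies past 2-fold by all 3 measures.

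Ctsd (chr7:142375911-142388038, minus strand, ENSMUSG00000007891) encodes the aspartic protease cathepsin D. In macrophages it measured 514 CPM in NCD and 2700 CPM in HFD, a ratio of 5.25 (5.07 to 5.44). Its share of macrophages with a UMI, after every cell was thinned to 1400 UMIs, was 43.8% in NCD and 84.4% in HFD (70.1% and 90.9% unthinned). In T cells, which also hold lysosomes, the thinned share was 34.4% and 54.1%. The macrophage ratio was 6.21 after subtraction of free RNA and 6.48 in clusters with little of it. In HFD, macrophages stood highest of all units compared, and their interval of 2660 to 2740 CPM did not overlap that of the next, cycling cells of HFD (2158 to 2354).

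In progenitors Ctsd measured 193 CPM in NCD and 576 CPM in HFD, a ratio of 2.99, which was 1.57 after subtraction and 2.28 in clusters with little free RNA. In dendritic cells the values were 28.1 and 343 CPM, a ratio of 12.2 (8.73 to 17.3), which was 2.34 after subtraction. The dendritic value differed between clusters. In cluster 18b, where stromal markers stood at 2.001% of the library level in NCD and 5.84% in HFD, Ctsd measured 21.8 and 92.1 CPM, a ratio of 4.23 (1.99 to 9.09). In cluster 18a, where they stood at 39.6% in HFD, it measured 602 CPM.

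Ctsb (chr14:63122462-63145923, plus strand, ENSMUSG00000021939) encodes cathepsin B, an abundant endopeptidase that also trims dipeptides from the carboxy end. It was the highest of the 9 proteases in macrophages, where 2395 CPM were measured in NCD and 3974 in HFD, a ratio of 1.66. That ratio was 1.93 after subtraction and 2.005 in clusters with little free RNA, just past 2-fold. In progenitors Ctsb measured 445 and 1102 CPM, a ratio of 2.48, which was 1.75 after subtraction. In dendritic cells it measured 165 and 536 CPM, a ratio of 3.24, but 146 and 97.5 CPM after subtraction, so the direction turned. In cluster 18b the ratio was 1.52, from 164 to 249 CPM.

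Ctsl (chr13:64359337-64370890, minus strand, ENSMUSG00000021477) encodes cathepsin L, an endopeptidase that cuts the invariant chain and processes other lysosomal enzymes. In macrophages it measured 268 CPM in NCD and 1201 CPM in HFD, a ratio of 4.48 (4.27 to 4.71), which was 4.85 after subtraction. In progenitors it measured 1005 and 1307 CPM, a ratio of 1.30. The order of these classes was thus wide apart in NCD, where progenitors stood 3.75-fold above macrophages, and close in HFD, where they stood 1.09-fold above. Dendritic cells had 14.4 CPM (23 UMIs) and 171 CPM (87 UMIs) of Ctsl. Subtraction took Ctsl to 0 in both libraries there, so no corrected ratio can be given.

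Ctss (chr3:95526786-95556403, ENSMUSG00000038642) encodes cathepsin S, the endopeptidase best known for the last cuts of the invariant chain. Macrophages had 926 CPM in NCD and 1776 CPM in HFD, a ratio of 1.92 (1.86 to 1.98), which was 2.28 after subtraction. Type 1 dendritic cells had 370 and 427 CPM, and type 2 cells of NCD had 858 CPM. Over the dendritic cells together Ctss measured 613 and 622 CPM, and these intervals overlapped (575 to 653 and 555 to 695). Classical monocytes had 1606 CPM and 1877 CPM, and their HFD value did not differ from that of HFD macrophages beyond the counting intervals.

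In progenitors Ctss measured 9.65 CPM in NCD (150 UMIs) and 234 CPM in HFD (1753 UMIs), a ratio of 24.2 (20.5 to 28.8). The HFD progenitors had 16.0 UMIs of Ctss per 100 UMIs of the macrophage marker list, and the HFD macrophages 13.2. For Ctsb, Ctsd and Lgmn the same quotient was 75.7, 39.6 and 18.9 in HFD progenitors, against 29.6, 20.1 and 7.43 in HFD macrophages. So Ctss stood a little above the proportion to macrophage markers that macrophages have, beyond the counting intervals, and the other 3 further above it. This was not particular to progenitors. In HFD T cells the quotient was 47.8 for Ctsb, 46.4 for Ctsd, 12.3 for Lgmn and 24.5 for Ctss. In HFD endothelial cells it was 32.9 for Ctsb and 9.46 for Lgmn, but 17.95 for Ctsd, below that of macrophages. Whether progenitors make these transcripts themselves was not tested. Subtraction left 0 CPM of Ctss in NCD progenitors and 22.9 in HFD, and clusters with little free RNA had 9.65 and 114 CPM, a ratio of 11.8. In the HFD cluster 5a, with macrophage markers at 56.7% of the library level, Ctss measured 544 CPM, and in cluster 5b, with 12.3%, it measured 126 CPM.

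Ctsk (chr3:95499256-95509362, plus strand, ENSMUSG00000028111) encodes the collagen-cutting cathepsin K. In NCD it was a progenitor gene, at 182 CPM in progenitors and 6.48 CPM (49 UMIs) in macrophages, 28.1-fold less. In HFD progenitors had 394 CPM and macrophages 294 CPM (1882 UMIs), 1.34-fold less. The HFD to NCD ratio was 45.4 in macrophages (34.2 to 61.6) and 2.16 in progenitors. In macrophages it was 122 after subtraction, which left 2.33 CPM in NCD and 284 CPM in HFD, and 65.4 in clusters with little free RNA. Macrophages held 1.67% of all Ctsk UMIs of the NCD library and 33.4% of those of the HFD library.

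The thinned share of macrophages with a Ctsk UMI was 0.894% in NCD and 22.7% in HFD (1.79% and 31.1% unthinned). T cells, taken as cells without the gene, had shares of 1.04% (0.0264 to 5.67%) and 13.3% (8.85 to 18.8%). Macrophages had a median of 3644 and 2070 UMIs per cell, and T cells 2552 and 1944. The NCD macrophage share thus lay at the T cell level, and the HFD share above it (20.9 to 24.5%). In NCD the level in macrophages did not differ from that in type 1 dendritic, T, B or endothelial cells beyond the counting intervals.

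Within HFD macrophages Ctsk did not follow the stromal markers. Cluster 22c (207 cells), which passed the threshold for 11 of 11 lipid-associated markers, had stromal markers at only 6.22% of the library level and the highest Ctsk of the macrophage clusters, 487 CPM. It had 26.5 Ctsk UMIs per 100 stromal marker UMIs (24.4 to 28.7). Progenitors of HFD had 0.748, T cells 0.809 and the resident-like clusters 19a and 19b had 0.825 and 0.754. Cluster 22a (527 cells, 11 of 11 markers) had 413 CPM at 24.98% stromal markers, and cluster 1b (685 cells) 291 CPM at 74.5%. Clusters 1a and 1b, which are also lipid-associated-like, had quotients of 1.19 and 1.30, the HFD cells of the resident-like cluster 3a 1.75 (0.699 to 3.64), and cluster 15b, of neither type, 3.31. Clusters 19a and 19b, like T cells, thus had Ctsk in about the progenitors' proportion to stromal genes, and clusters 22a, with 5.88, and 22c had several times more.

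**Figure D3:**
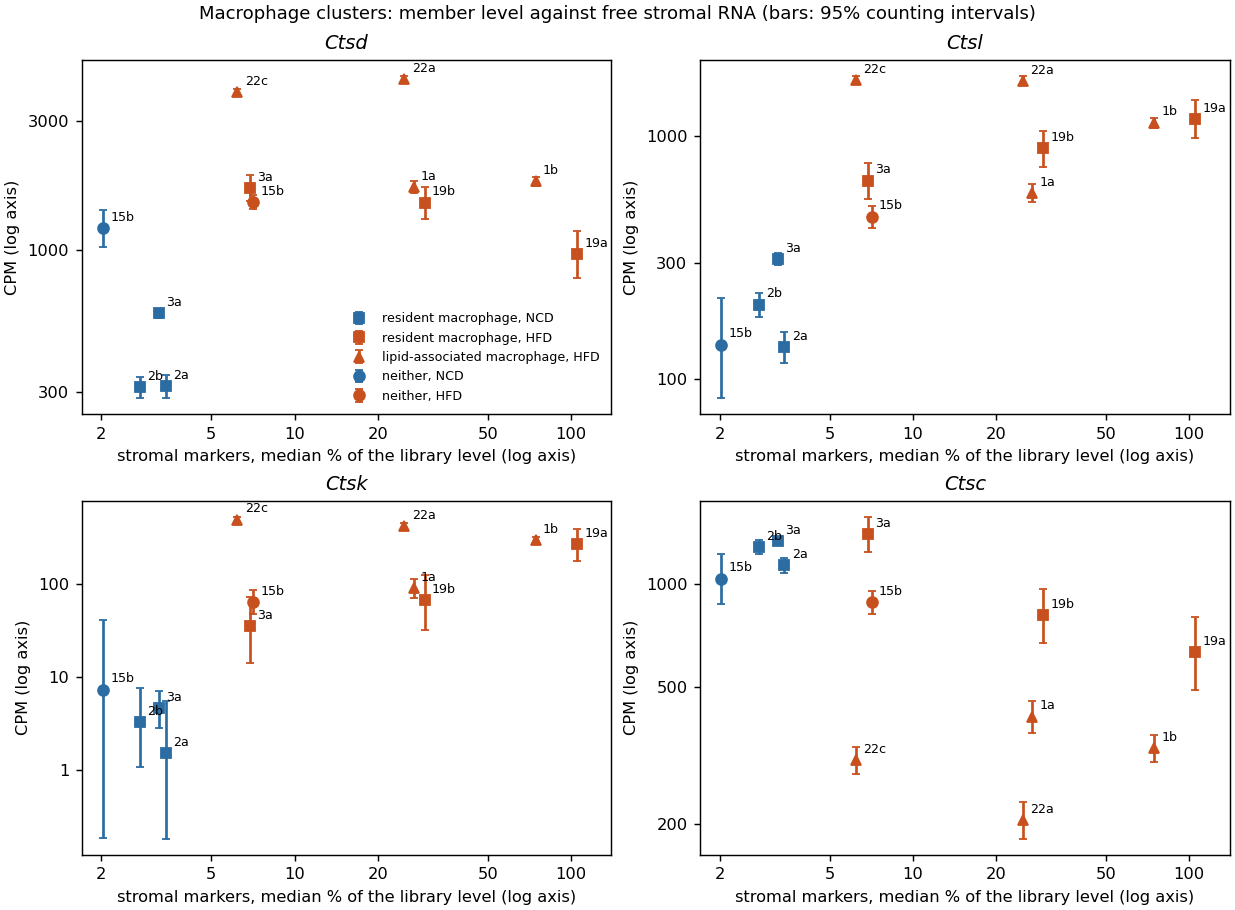
Level of Ctsd, Ctsl, Ctsk and Ctsc (CPM, log axis) in each macrophage cluster against the median level of 15 stromal markers there as a percentage of the library level (log axis), with clusters labelled by number and letter, squares for resident-like, triangles for lipid-associated-like and circles for neither. Cluster 22c combines the highest Ctsk, 487 CPM, with stromal markers at 6.22%.

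The remaining Ctsk values were small. In dendritic cells Ctsk rested on 6 UMIs in NCD (3.75 CPM) and 30 in HFD (59.1 CPM), and subtraction left 1.49 and 0 CPM. Type 1 dendritic cells of HFD had 0.965 Ctsk UMIs per 100 stromal marker UMIs, close to the progenitors' quotient. In cluster 18b Ctsk had 3 UMIs in NCD and 4 in HFD, too few to compare.

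Among the exopeptidases, Ctsc (chr7:88278085-88310888, plus strand, ENSMUSG00000030560) encodes cathepsin C, the dipeptidyl peptidase that activates granule serine proteases. Macrophages had 1263 CPM of it in NCD, the highest of all units, and 436 CPM in HFD, a level 2.89-fold lower (2.77 to 3.02). In clusters, Ctsc followed the macrophage subset. It stood at 306 CPM in cluster 22c and 205 CPM in cluster 22a, and within the HFD library lipid-associated cells had 3.55-fold less than resident-like cells (305 against 1084 CPM). Cluster 3a held resident-like cells of both libraries, 1193 NCD and 41 HFD, and there Ctsc measured 1340 and 1403 CPM, a ratio of 1.05 (0.926 to 1.18). In progenitors it measured 43.3 and 86.1 CPM, a ratio of 1.99 that became 1.18 after subtraction. Dendritic cells had 118 CPM in both libraries.

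Ctsh (chr9:90054152-90076089, plus strand, ENSMUSG00000032359) encodes cathepsin H, an aminopeptidase. Macrophages had 866 CPM of Ctsh in NCD and 451 CPM in HFD, a level 1.92-fold lower. Within HFD the lipid-associated cells had 2.25-fold less Ctsh than the resident-like cells. Type 2 dendritic cells of NCD had 637 CPM and type 1 cells 219 CPM in NCD and 218 CPM in HFD. The 1.42-fold lower pooled dendritic value in HFD, 309 against 438 CPM, went with the change from 138 to 11 type 2 cells.

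Ctsz (chr2:174427493-174439039, minus strand, ENSMUSG00000016256) encodes cathepsin Z, a carboxypeptidase also called cathepsin X. Macrophages had 446 CPM of Ctsz in NCD and 1070 CPM in HFD, a ratio of 2.40, which was 2.76 after subtraction. In NCD, macrophages had 1.57-fold more than progenitors, and type 1 dendritic cells had 307 CPM. The ratio of HFD to NCD was 1.49 in progenitors.

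Lgmn (chr12:102394084-102439813, minus strand, ENSMUSG00000021190) encodes legumain, which cuts after asparagine and turns several cathepsins into their mature 2-chain forms. It was a macrophage gene with nearly equal levels in both libraries, 1024 CPM in NCD and 997 CPM in HFD, a ratio of 0.973 (0.942 to 1.01). In progenitors it measured 31.7 CPM (493 UMIs) in NCD and 275 CPM (2065 UMIs) in HFD, a ratio of 8.67. That ratio was 7.85 after subtraction, from 23.6 to 186 CPM, and 6.78 in clusters with little free RNA. In dendritic cells Lgmn measured 38.2 and 112 CPM, a ratio of 2.94, and subtraction left 31.2 CPM in NCD and 0 in HFD. Type 1 dendritic cells had 21.9 and 110 CPM, in HFD about as much as T cells with 137 CPM.

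Several progenitor clusters held cells of both libraries. In cluster 6a (34 NCD and 441 HFD cells), where macrophage markers stood at 1.31 and 4.55%, the HFD to NCD ratio of Lgmn was 2.02, of Ctsd 2.21 and of Ctsb 1.81. In cluster 12a (728 and 63 cells), with macrophage markers at 3.44 and 4.22%, the ratio was 4.04 for Lgmn, 1.99 for Ctsd, 1.89 for Ctsb and 2.498 for Ctsk. Each of these ratios was above 1 at low levels of macrophage markers, and all but that of Ctsk were below the ratio over all progenitors. Cluster 12a had 242 UMIs of Ctsk in NCD and 54 in HFD. In clusters 6a, 13a, 9a and 10a, with 441, 26, 24 and 22 HFD cells, the Ctsk ratio was below that over all progenitors. Clusters 13a, 9a and 10a had only 23, 26 and 13 UMIs of Ctsk in HFD. Differences between clusters in this ratio were not tested. Ctsc went the other way in cluster 6a, with 219.7 CPM in NCD and 61.2 CPM in HFD.

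Cst3 (chr2:148871722-148875692, minus strand, ENSMUSG00000027447) encodes the inhibitor cystatin C. It was the highest of the 10 genes in each unit named here except HFD macrophages, where Ctsb was higher. Type 1 dendritic cells led, with 33728 CPM in NCD (33309 to 34152) and 23011 in HFD (22527 to 23504), 1.47-fold lower as measured. Activated dendritic cells followed with 16476 and 14434 CPM, and type 2 cells of NCD had 6697 CPM. Macrophages had 6369 CPM in NCD and 3454 CPM in HFD, 1.84-fold lower, and progenitors 2216 and 2581 CPM. Type 1 dendritic cells thus stood 5.30-fold above macrophages in NCD and 6.66-fold in HFD. In NCD, the type 2 value and that of macrophages (6312 to 6426 CPM) differed beyond their counting intervals, by little. Dendritic cells held 22.7% of the Cst3 UMIs of NCD and 16.6% of those of HFD, with 4.94% and 2.87% of all UMIs. The Cst3 values above are without subtraction of free RNA. In type 1 dendritic cells stromal markers stood at a median of 2.22% of the library level in NCD and 22.04% in HFD. The type 1 cells of each library also lay mainly in different clusters. Over the dendritic cells together Cst3 was nearly level as measured, at 19955 and 19639 CPM. After subtraction it was higher in HFD, at 20360 and 23919 CPM. These pooled values mix dendritic types, and the type 2 cells, with less Cst3 in NCD, went from 138 to 11. Type 1 cells and activated cells were each lower in HFD as measured. In macrophages subtraction left 6468 and 3481 CPM.

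**Figure D4:**
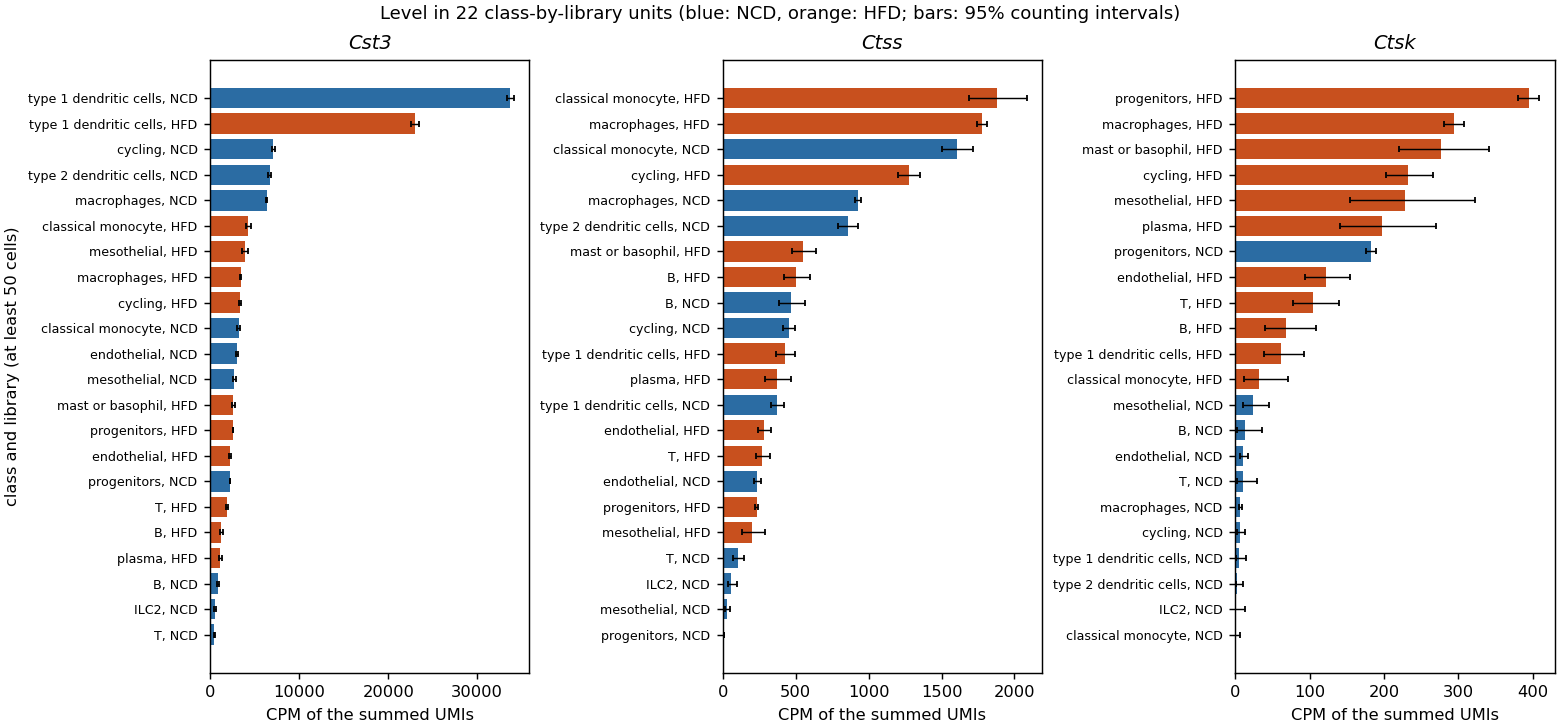
Level of Cst3, Ctss and Ctsk (CPM) in the 22 units of a class in a library with at least 50 cells, with 95% counting intervals. Cst3 peaks in type 1 dendritic cells (33728 CPM in NCD), Ctss in monocytes and macrophages, and Ctsk in HFD progenitors (394 CPM) and HFD macrophages.

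Resident-like and lipid-associated-like macrophages differed in several of the genes within the HFD library, where 177 and 1809 cells were compared. Lipid-associated cells had more Ctsk (4.03-fold), Ctsd (2.26-fold) and Ctsz (2.06-fold) and less Ctsc and Ctsh. Ctsb was nearly level, at 4072 CPM against 3670 CPM in resident-like cells. Cluster 3a allowed resident-like cells to be compared between libraries at low stromal marker levels (3.24% in NCD and 6.89% in HFD). There Ctsd measured 583 and 1696 CPM, a ratio of 2.91 (2.59 to 3.26), and Ctsl 311 and 654 CPM, a ratio of 2.11. The Ctsk ratio in that cluster was 7.59 (2.71 to 18.7) on 20 UMIs in NCD and 7 in HFD.

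Progenitor subsets also differed in some of the genes. Col15a1-type progenitors, marked by Col15a1 and Pparg, had more Ctsh than Pi16 Dpp4-type progenitors in both libraries, by 2.34-fold in NCD and 1.87-fold in HFD. For Ctsk the same ratio was 1.63 and 1.85. These levels were not particular to the Col15a1 type, which had 621 and 514 CPM of Ctsh and 203 and 406 CPM of Ctsk. Progenitors of no named type (885 NCD and 1994 HFD cells) had 579 and 530 CPM of Ctsh and 276 and 453 CPM of Ctsk. In NCD, 31 F3 Gdf10-type cells had 866 CPM of Ctsh and 351 CPM of Ctsk. Col15a1-type cells lay mainly in cluster 9b in NCD and 6a in HFD. Ctsc was 5.20-fold higher in the Col15a1 type in NCD (106 against 20.3 CPM), and its ratio in HFD was 1.05 (0.794 to 1.40). Ctss was 3.61-fold lower in the Col15a1 type in HFD (49.4 against 178 CPM), with macrophage markers at 4.55% of the library level in the main Col15a1-type cluster, 6a, and 22.99% in the main Pi16 Dpp4-type cluster, 23a. The part of free RNA in that difference was not tested.

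**Figure D5:**
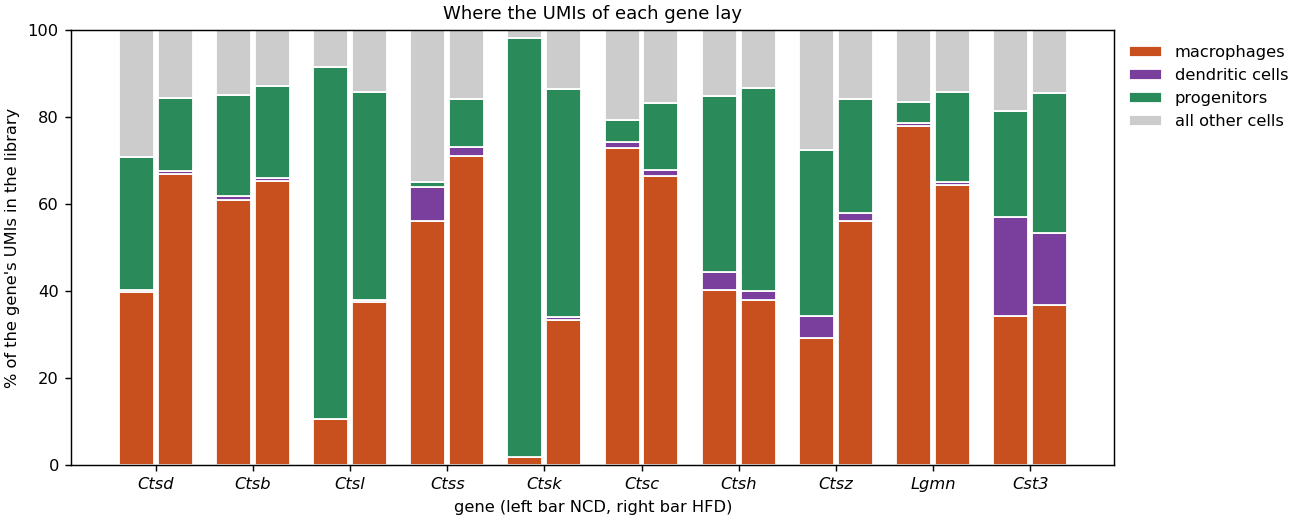
Share of each gene's UMIs (%) found in macrophages, dendritic cells, progenitors and all other cells, with the NCD library on the left and the HFD library on the right. For Ctsk the macrophage share goes from 1.67% to 33.4%, and for Lgmn from 78.0% to 64.4%.

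The other genes of the system were read from lists in the same way, beside a median log2 ratio of HFD to NCD of -0.08 over all genes in macrophages, -0.08 in dendritic cells and -0.21 in progenitors. The median of the 10 genes themselves was 0.84 in macrophages (1.07 after subtraction), 0.93 in dendritic cells (-0.26) and 1.05 in progenitors (0.53). Beside the list counts in macrophages stand the 10.0% of all genes measured there that were at least 2-fold higher and the 10.3% that were lower. In macrophages, 7 of 27 lysosomal hydrolases were at least 2-fold higher and 1 lower, with a median of 0.11 (0.26 after subtraction). Lipa, the acid lipase, measured 112 CPM in NCD and 361 CPM in HFD. Of the lysosomal membrane and proton pump genes, 4 of 20 were at least 2-fold higher and 0 lower, with a median of 0.10. The largest ratio there was that of the pump subunit Atp6v0d2, 10.6 and 216 CPM, which is also in the marker list of lipid-associated cells.

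Of 9 sorting genes measured in macrophages, 3 were at least 2-fold higher and 0 lower, with a median of 0.27. The mannose 6-phosphate receptor Igf2r measured 1.72 CPM (13 UMIs) in NCD and 54.8 CPM (350 UMIs) in HFD, and prosaposin (Psap) 1520 and 3156 CPM. Among 3 other inhibitors, 1 was at least 2-fold higher, the cytosolic cystatin B (Cstb), at 569 and 1290 CPM. Its direction was opposite to that of Cst3. None of 4 other cathepsins measured passed 2-fold, and Ctsa had 275 and 394 CPM. Of 6 lysosome transcription factors, 2 were at least 2-fold lower and 0 higher, with a median of -0.61, and Tfe3 had 70.2 and 30.3 CPM.

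The MHC class II genes, whose products cathepsins help to load, differed between the classes. Of 8 MHC class II genes measured in macrophages, 3 were at least 2-fold lower in HFD and 1 higher, with a median of -0.98. H2-Eb1 measured 6248 and 2911 CPM and H2-Aa 8560 and 4237 CPM. In dendritic cells 0 of 10 passed 2-fold in either direction, beside 10.5% of all genes higher and 10.2% lower, with a median of -0.42. In progenitors 6 of 6 were at least 2-fold higher, beside 5.15% of all genes, but subtraction took 4 of them to 0 in a library. Cd74, the invariant chain, measured 240 and 2316 CPM there, beside the macrophage markers at 2.85 and 24.0%.

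Of 6 osteoclast-type genes measured in macrophages, 3 were at least 2-fold higher in HFD and 2 lower, with a median of 1.17. The acid phosphatase Acp5 measured 14.3 and 85.9 CPM, and the gelatinase Mmp9 went the other way, 138 CPM (1042 UMIs) and 1.88 CPM (12 UMIs). All 10 matrix genes that cathepsins can cut were at least 2-fold higher in HFD macrophages, and subtraction took 8 of them to 0 in a library. Col1a1, Col1a2, Col3a1, Dcn and Lum are also among the stromal markers that set the amount subtracted. For these, a value near 0 follows from the method. In progenitors 2 of those 10 were at least 2-fold higher, beside 5.15% of all genes, Lum (1202 and 3369 CPM) and Col1a1 (800 and 1850 CPM). In dendritic cells 5 of 20 hydrolases were at least 2-fold higher and 2 lower, beside 10.5% and 10.2% of all genes, and their median of 0.41 became -0.05 after subtraction. In progenitors 4 of 23 were higher and 0 lower, beside 5.15% and 4.38%, and their median of 0.46 became 0.23. Examples in progenitors were Acp5 at 1.93 and 52.9 CPM and the ganglioside activator Gm2a at 80.9 and 203 CPM.

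Likeness was described by Pearson's r of log2(CPM + 10) over the 22 units, among 3336 genes that reached 100 CPM in a unit. Units of a library share its depth and free RNA, so r is a description. Ctsk was most like Lum (0.96), Plau (0.94) and Mgp (0.93), which are stromal genes. Ctsd was most like Pld3 (0.92) and Trem2 (0.88), Ctsb like Grn (0.92), and Ctsl like Cd63 (0.94). Ctss was most like Tyrobp (0.95), Ctsc like Cybb (0.93) and Lgmn like Apoe (0.94), all myeloid genes. Cst3 was most like Shtn1 (0.86) and Ctsz like Slirp (0.83). Among the 10 genes, Ctsb and Lgmn were most alike (0.90), then Ctsb and Ctsd (0.85) and Ctsc and Ctss (0.81), and Ctsc and Ctsk least (-0.25).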

How the data were processed

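The authors deposited raw UMI counts per gene and barcode for 2 libraries of cells, made with Cell Ranger against mm10 (Seurat is also named), per the submitters' processing notes, and versions are not given in the sources used here. Barcodes with at least 500 genes, 1000 UMIs and at most 20% mitochondrial UMIs were kept. Scrublet marked 196 NCD doublets at its own threshold, and since that threshold marked 0 in HFD, the top 5% by score (342) were removed there. Cells were clustered with scanpy 1.11.5 (2000 variable genes without the 10 genes, 30 components, 15 neighbours, Leiden at resolution 1, then 0.3). Clusters were named where at least 3 markers passed 1.5-fold. Without a marker of their own among their top 10 genes, they also needed a mean log2 fold of at least 2 and sufficient depth. Where markers of another class were among those 10 genes and were as many as their own or more, clusters stayed unnamed. The minimum of the mean, the rule for ties and leaving out the erythroid list were chosen after the clusters were seen. The members and lists were chosen with earlier results of these data known. UMIs were summed per class and library. Intervals were exact Poisson (levels), Clopper-Pearson (shares) and conditional binomial (ratios). On data simulated with counting error alone, the ratio intervals held the true ratio in 95.5%, 96.2% and 95.6% of macrophage, dendritic and progenitor genes. That coverage is set by the method, and the simulation held no variation between cells or animals. Free RNA was subtracted at the marker medians. All 10 genes were named, from each list up to 3 of the largest ratios at 50 CPM or more, and up to 3 most alike genes each, and some of these are not reported here. Alternatives covered cell filters, doublets, clustering, thinning to 2000 UMIs, fold and free RNA.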

Additional observations from a re-analysis of the deposited data

Results flagged for a closer look

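A few genes had a ratio of HFD to NCD above 1 in 1 class and below 1 in another, each with its counting interval away from 1. Ctsc had a log2 ratio of 0.99 in progenitors and -1.53 in macrophages. Ctsh had 0.16 in progenitors, -0.94 in macrophages and -0.50 in dendritic cells. Cst3 had 0.22 in progenitors and -0.88 in macrophages. With 1 library per diet the differences between classes were not tested.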

How the results depend on the processing

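Of the 30 log2 ratios (10 genes in 3 classes), 20 kept their direction under every alternative that gave a ratio. Those 20 include Ctsk and Ctsl in dendritic cells, which had no ratio after subtraction. At a 1.5-fold threshold, 3 genes were lower in macrophages (1 at 2-fold). In dendritic cells the count of genes at least 2-fold higher, 5, was 3 with a stricter cell filter, 2 at Leiden resolution 2 and 1 after subtraction of free RNA, which also gave 1 gene lower (0 before). In progenitors the count of 5 was 3 after subtraction, with Ctss counted on a bound set by 3 UMIs. Shares over all genes under these alternatives are not reported here, so these counts cannot be set against them. The direction turned for Ctsb (-0.58) and Lgmn (-2.40, a bound set by 3 UMIs) in dendritic cells after subtraction, for Ctsd (-0.31) and Ctsh (0.20) there at Leiden resolution 2, for Ctsh in progenitors without a cell filter (-0.019) and for Cst3 in progenitors at Leiden resolution 2 (-0.013). Another 4 ratios lay near 0 (log2) and took both signs, Cst3 (-0.55 to 0.62), Ctsc (-0.66 to 0.33) and Ctss (-0.17 to 0.66) in dendritic cells and Lgmn in macrophages (-0.13 to 0.20). At Leiden resolution 2 the dendritic class held 500 NCD and 88 HFD cells, and the causes of the other turns were not tested. Subtraction gave no ratio for Ctsk and Ctsl in dendritic cells, which came to 3 UMIs or fewer in both libraries. Type 1 dendritic cells alone were added as an alternative after the data were seen. Thinning to 2000 UMIs left 12 of 60 shares within their interval and moved the rest by up to 16.7 points, so shares hold only at the stated depth. No paired analysis was possible because each diet has 1 library.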

Other observations

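Some clusters could not be named and entered no class. Cluster 4a (239 NCD and 31 HFD cells), led by Retnla, Lyz1, Ccr2 and Ear2, had 933 CPM of Ctsb in NCD and 954 in HFD, Ctss at 873 and 1610 CPM, Ctsd at 552 and 656 CPM and Ctsc at 641 and 343 CPM. Cluster 4d (217 NCD cells), led by Lyz1 and Ear2, had Ctss at 668 CPM, Ctsz at 636 CPM and Ctsd at 557 CPM. Cycling cells, named by Stmn1, Birc5 and Top2a, had 215 CPM of Ctsd in NCD and 2254 in HFD, and Ctsk at 5.68 and 232 CPM. In HFD, 189 of the 233 cycling cells lay in cluster 14c, whose second-best marker list was that of macrophages. Classical monocytes (130 and 51 cells) had Ctss at 1606 and 1877 CPM, Ctsc at 921 and 748 CPM and Ctsh at 580 and 559 CPM.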
